A study of Mus musculus with 18 samples.

Results

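The constitutive proteasome subunits are here 31 genes that encode subunits of the standard proteasome of a mouse cell. They were found by matching the gene identifiers of the count table to their symbols. They make up 31 of 51467 genes in the table, and all of them were among the 12851 genes tested. The core particle has 14 members, of which Psma1 to Psma7 form the alpha ring and Psmb1 to Psmb7 the beta ring. The regulatory particle has 17 members, namely the 6 ATPases Psmc1 to Psmc6, the 3 non-ATPase base subunits Psmd1, Psmd2 and Psmd4, and 8 lid subunits (Psmd3, Psmd6, Psmd7, Psmd8, Psmd11, Psmd12, Psmd13 and Psmd14). Sem1 and Adrm1, also subunits of the regulatory particle, are not members and are given with the other lists. Counts and medians of regulatory subunits below cover these 17 members only.

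The samples were embryonic stem cells (ESCs) of 2 genotypes, wild type (WT) and DGCR8KO (here KO), a line without DGCR8, the partner of Drosha that is needed to make canonical microRNAs. Both were grown with serum, LIF and the inhibitors PD0325901 and CHIR99021 and held for 2 minutes in 100 ug/ml cycloheximide, which stops ribosomes on the message. From each of 3 sucrose gradients (10 to 50%) per genotype, RNA was taken from monosomes, low polysomes (2 to 4 ribosomes) and high polysomes (4 or more), and 3′ ends were sequenced, giving 6 groups of 3 libraries. The study names 1 line for each genotype, so line and genotype cannot be told apart, and nothing says whether the gradients of a genotype came from separate cultures, so p-values measure only the spread between these gradients.

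As background, proteins tagged with ubiquitin chains are bound by the regulatory particle, stripped of the tag, unfolded by a ring of ATPases and threaded into the core particle. There the beta subunits Psmb5, Psmb6 and Psmb7 cut the chain, while the alpha rings form the gate. Subunits are needed in fixed ratios, dedicated chaperones build the core, and the transcription factor NRF1, encoded by Nfe2l1, raises subunit genes when proteasome activity falls short, through antioxidant response elements in their promoters.

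Libraries held 1151649 to 4984833 counts, and the least and most abundant member values were 14 reads, for Psma3, and 6750 reads. Dgcr8 kept 38 to 183 reads in every KO library, at levels of 47.3, 52.0 and 51.3 CPM in KO monosomes against 76.3, 68.4 and 79.6 CPM in WT (CPM, reads of a gene relative to all reads of its library, scaled by TMM factors). The reads come from the 3′ end and the deleted part of the gene is not given in the sources used here, so they do not check the genotype. All 9 markers of pluripotent stem cells were tested, with a summed level of 2426 to 5257 CPM per library. The summed marker levels here are relative to total counts, without TMM factors. Markers of fibroblasts, primitive endoderm and trophoblast summed to at most 22.2 CPM in any library, with 2 of 7, 2 of 6 and 1 of 5 passing the filter. Of the 9 pluripotency genes, 7 were lower in KO in the high to low polysome ratio described below and 5 in high polysomes. None was higher in either, and over all genes 10.3% and 31.6% were lower. In low polysomes 4 of the 9 were higher and 2 lower, and in monosomes 2 were higher and none lower. The part of these genes in the members' results was not tested. Levels were compared within a gene only, as CPM of a library relative to its tested genes, so fewer cells and less RNA per cell cannot be told apart.

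The KO line lacks the microRNAs that dominate this cell type, a family that shares bases 2 to 8, its seed. The 5 mature RefSeq sequences with this seed are shown because they define which members could pair with the family. Capitals mark the seed. The first 3 are encoded on chromosome 7 and the others on chromosome 3.
mmu-miR-291a-3p: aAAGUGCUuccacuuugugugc
mmu-miR-294-3p: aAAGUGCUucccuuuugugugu
mmu-miR-295-3p: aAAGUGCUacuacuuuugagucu
mmu-miR-302b-3p: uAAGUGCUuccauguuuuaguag
mmu-miR-302d-3p: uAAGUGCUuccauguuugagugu
The letters paired by the seed, AGCACTT or GCACTTA, were in the 3′ untranslated region (UTR) of 1 of the 31 members (3.23%), against 2259 of 11763 protein-coding genes tested (19.2%). The members' 3′ UTRs were short, with a median of 169 nt against 998 nt over those genes. The match in Psma3, an alpha subunit (ENSMUSG00000060073, chromosome 12, 70974621 to 70996347, plus strand, GRCm38), lay at bases 1401 to 1407 of a 3′ UTR of 1952 nt and is shown with the matching letters in capitals.
Psma3: ccatccagtacAGCACTTgaaacaaaaac
A match describes letters only, and its use by a microRNA was not measured.

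To ask where along the gradient the members' messages sat, the translation level was taken first, which is the high polysome to monosome ratio. In WT, it was on the side of high polysomes for all 31 members, with a median of 1.25 on the log2 scale and a range of 0.55 (Psmd4) to 2.16 (Psmb5). Over all genes tested, 26.0% passed in that direction and 28.0% in the other. Of the members, 30 of 31 passed in KO, with a median of 1.17, where the background was 32.2% in favour of high polysomes and 35.5% in favour of monosomes. The exception was Psma3, with 0.05 ± 0.21 (SE, adjusted p = 0.847). The median of the core particle went from 1.43 in WT to 1.07 in KO, and that of the regulatory particle from 1.20 to 1.33.

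The change in the high to low polysome ratio asks how messages on polysomes are divided between heavy and light ones. All 14 core particle subunits fell in KO relative to WT, by a median of -0.90 (range -1.08 to -0.55, log2), and 3 of 17 regulatory particle subunits fell, with a median of -0.22 over the 17. No member rose. With libraries scaled by total counts, 14 core and 7 regulatory subunits fell, and without KO gradient 1, 2 regulatory subunits fell and Psmd13, a lid subunit, rose. The background was 10.3% of genes lower and 7.52% higher at an adjusted p under 0.05 (limma-voom, two-sided, Benjamini-Hochberg over all genes tested, as for all adjusted p below). In 14 of 14 core subunits every KO gradient lay below every WT gradient, as for 2362 of the 12851 genes tested. The median log2 ratio over the core subunits was 1.07, 0.93 and 1.14 in the 3 WT gradients and 0.14, 0.49 and 0.06 in the 3 KO gradients. Over the regulatory subunits it was 1.25, 1.21 and 1.24 in WT and 0.75, 1.20 and 1.13 in KO, where the first KO gradient stood lowest. These groups do not overlap, with 1.20 as the highest KO value and 1.21 as the lowest WT value. By parts, the lid median was 1.29, 1.42 and 1.35 in WT and 0.74, 1.10 and 0.85 in KO, which do not overlap, and the ATPase median was 1.24, 1.23 and 1.16 in WT and 0.69, 1.21 and 1.12 in KO, which overlap. That of the 3 non-ATPase base subunits was 1.11, 0.97 and 1.01 in WT and 0.84, 1.29 and 1.49 in KO, which also overlap. The medians of the fitted changes were -0.34 for the lid, -0.22 for the ATPases and 0.25 for the non-ATPase base. The regulatory count was 1 without WT gradient 2, and the core count 10 without KO gradient 3, which removed Psma3, Psma5, Psma7 and Psmb3.

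**Figure D1:**
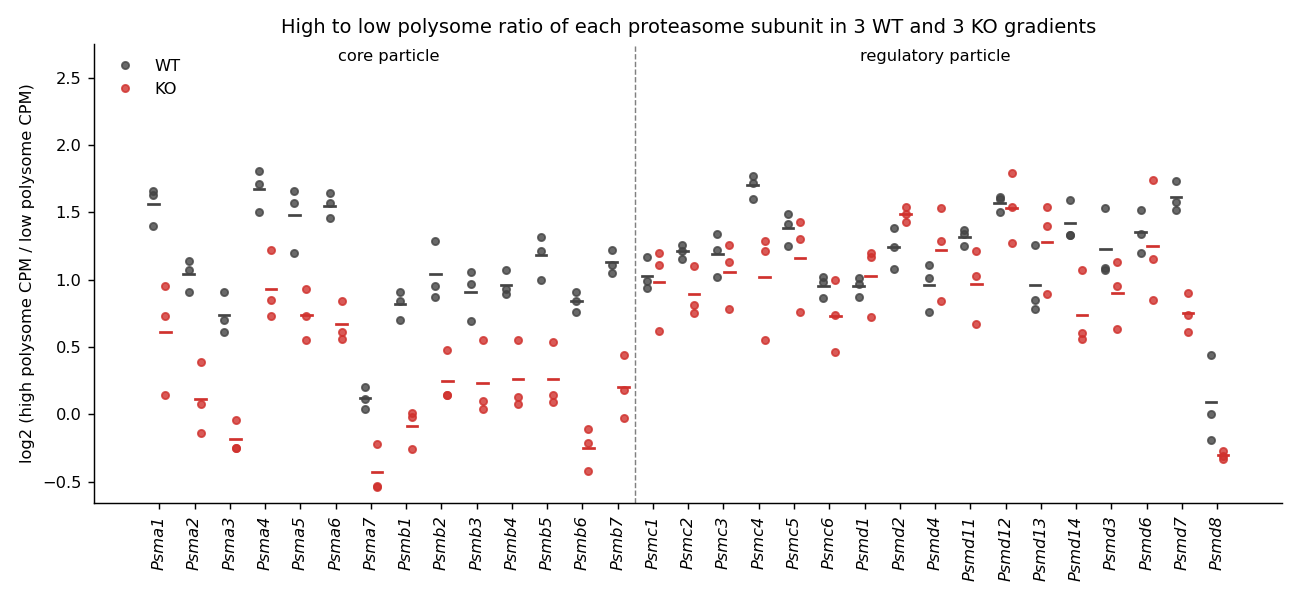
Log2 ratio of high to low polysome CPM (y axis) of each member (x axis) in 3 WT gradients (grey points) and 3 KO gradients (red points), with their means as bars. All 14 core particle subunits have their KO points below their WT points, whereas this holds for 6 of 17 regulatory particle subunits.

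The catalytic subunits of the beta ring were examined first. Psmb6, the caspase-like site (ENSMUSG00000018286, chromosome 11, 70525367 to 70527858, plus strand, GRCm38), was measured at 252, 244 and 253 CPM in WT monosomes and 223, 157 and 208 CPM in KO monosomes. It was at 327, 322 and 290 CPM in WT low polysomes and at 584, 545 and 546 CPM in WT high polysomes. In KO it stood at 409, 341 and 319 CPM in low and 306, 315 and 275 CPM in high polysomes. The high polysome groups do not overlap, and in KO the message was no longer more abundant in the high than in the low polysome library of any gradient. Its change in the high to low ratio was -1.08 ± 0.17 (SE, adjusted p = 1.43e-05), the only one among the members beyond 1 on the log2 scale.

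Psmb7, the trypsin-like site (ENSMUSG00000026750, chromosome 2, 38588036 to 38644087, minus strand), went from 344, 303 and 342 CPM in WT high polysomes to 249, 233 and 192 in KO. In low polysomes it went the other way, from 159, 145 and 147 to 220, 171 and 195 CPM, and neither pair of groups overlaps. In monosomes it was at 107, 107 and 99.0 CPM in WT and 98.4, 78.1 and 87.4 CPM in KO. Its high to low ratio fell by 0.94 (SE 0.17, adjusted p = 0.000131), its low polysome to monosome ratio rose by 0.64 (SE 0.19, adjusted p = 0.0206), and its translation level differed by -0.30 ± 0.19 (adjusted p = 0.251).

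Psmb5, the chymotrypsin-like site that proteasome inhibitor drugs bind (ENSMUSG00000022193, chromosome 14, 54614119 to 54618022, minus strand), followed another order. It was at 40.9, 47.1 and 41.6 CPM in WT monosomes and 65.0, 48.5 and 79.1 CPM in KO monosomes, so that every KO value was above every WT value. In low polysomes it was at 90.6, 73.1 and 93.9 CPM in WT and 124, 114 and 131 CPM in KO. In high polysomes the order turned, with 182, 183 and 219 CPM in WT and 136, 166 and 140 CPM in KO. It was the only member to rise in monosomes (0.53 ± 0.19, adjusted p = 0.0247), and its translation level fell by 0.94 (SE 0.23, adjusted p = 0.00184), the lowest change of the 31.

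Among the other beta subunits, Psmb3 (ENSMUSG00000069744, chromosome 11, 97703399 to 97713500, plus strand) had the largest KO against WT change of any member in high polysomes. It was at 335, 316 and 372 CPM there in WT and at 135, 187 and 163 CPM in KO, a change of -1.09 ± 0.13 (adjusted p = 4.73e-09). Psmb3 also fell in low polysomes (-0.40 ± 0.14, adjusted p = 0.0128), from 160, 195 and 190 CPM to 126, 128 and 158 CPM. In monosomes its values overlap, at 139, 95.5 and 96.4 CPM in WT and 90.6, 73.0 and 98.7 CPM in KO. Psmb4 (ENSMUSG00000005779, chromosome 3, 94884093 to 94886961, minus strand) was the beta subunit whose translation level differed least, by -0.13 ± 0.18 (adjusted p = 0.622). Its high polysome level nevertheless fell from 697, 676 and 755 CPM to 504, 497 and 444 CPM (-0.56 ± 0.12, adjusted p = 8.56e-05), with a fall in monosomes as well (-0.43 ± 0.13, adjusted p = 0.00931), from 298, 303 and 330 CPM to 236, 189 and 274 CPM. Its low polysome values overlap, at 332, 364 and 395 CPM in WT and 459, 338 and 419 CPM in KO.

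In the alpha ring, Psma7 had the lowest change in translation level and Psma5 the highest. Psma7 (ENSMUSG00000027566, chromosome 2, 180036374 to 180042433, minus strand) was at 498, 474 and 442 CPM in WT monosomes and 569, 426 and 497 in KO, which overlap. In high polysomes it was at 1112, 1090 and 987 CPM in WT and at 614, 662 and 534 CPM in KO, with all KO values lower. Its translation level fell by 0.89 (SE 0.16, adjusted p = 5.65e-05). It was also the core subunit with the smallest fall in the high to low ratio (-0.55 ± 0.16, adjusted p = 0.0115), and it fell in low polysomes too (-0.28 ± 0.11, adjusted p = 0.0324), from 969, 1056 and 917 CPM to 893, 770 and 771 CPM.

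Psma5 (ENSMUSG00000068749, chromosome 3, 108256926 to 108279974, plus strand) fell in monosomes from 68.3, 63.9 and 60.1 CPM to 55.6, 41.2 and 36.4 CPM (-0.58 ± 0.18, adjusted p = 0.0109). It fell by a like amount in high polysomes, from 154, 138 and 131 CPM to 100, 93.2 and 108 CPM (-0.48 ± 0.14, adjusted p = 0.00256). Its translation level differed by 0.10 ± 0.23 (adjusted p = 0.781). In low polysomes, where it was at 51.1, 59.4 and 40.9 CPM in WT and 52.3, 55.8 and 73.8 CPM in KO, the groups overlap. Its low polysome to monosome ratio rose by 0.85 (SE 0.24, adjusted p = 0.0137), the largest rise in the core particle.

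The 3 regulatory subunits that fell in the high to low ratio were Psmd7 and Psmd14, the pair of lid subunits with an MPN fold, and the ATPase Psmc4. Psmd14, the deubiquitinase that removes the ubiquitin chain (ENSMUSG00000026914, chromosome 2, 61711694 to 61800376, plus strand), was at 140, 165 and 154 CPM in WT high polysomes and at 108, 104 and 102 CPM in KO. Its low polysome values overlap, at 55.0, 54.4 and 60.5 CPM in WT and 71.0, 49.0 and 68.6 CPM in KO. In monosomes they overlap too, at 64.3, 69.7 and 40.7 CPM in WT and 42.8, 47.4 and 48.2 CPM in KO. The change in the ratio was -0.68 ± 0.20 (adjusted p = 0.0134). For Psmd7, the catalytically silent partner of Psmd14, the ratio per gradient was 1.73, 1.58 and 1.52 in WT and 0.61, 0.90 and 0.74 in KO, a change of -0.86 ± 0.16 (adjusted p = 0.000203). They have the 2 shortest coding sequences among the 17 regulatory members, 966 nt for Psmd7 and 933 nt for Psmd14. Sem1, a lid subunit that is not a member, is shorter (213 nt).

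Psmc4, an ATPase of the base (ENSMUSG00000030603, chromosome 7, 28041707 to 28050101, minus strand), had the largest monosome change of any member. It was at 56.3, 51.0 and 55.7 CPM in WT monosomes and 31.1, 22.9 and 19.6 CPM in KO (-1.20 ± 0.20, adjusted p = 8.6e-06). In high polysomes it fell from 132, 129 and 109 CPM to 68.4, 69.3 and 74.7 CPM (-0.79 ± 0.14, adjusted p = 4.1e-06). In low polysomes, at 39.5, 37.4 and 35.2 CPM in WT and 46.4, 29.5 and 30.2 CPM in KO, the values overlap. Its low polysome to monosome ratio rose by 1.09 (SE 0.26, adjusted p = 0.00339), the largest rise of the 31, and its translation level differed by 0.41 ± 0.24 (adjusted p = 0.22).

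For the low polysome to monosome ratio, 6 core subunits (Psma5, Psma6, Psmb1, Psmb4, Psmb6 and Psmb7) and 3 regulatory subunits (Psmc4, Psmd3 and Psmd7) rose and none fell, where 3.90% of all genes rose and 7.49% fell. The medians were 0.52 over the core and 0.30 over the regulatory subunits. This ratio and the high to low ratio share the low polysome libraries, so a high or low value there moves them in opposite directions. Both passed, in those directions, in 8 of 31 members, against 0.731% of all genes. The count of members was 3 without WT gradient 1 or 2 and 4 without WT gradient 3, and in the core 1 in each of these. With total counts, 2 core subunits rose (Psma5 and Psmb1), and with no filter on low counts, 1 (Psmb1). Without KO gradient 2 the core count was 2, with Psma5 higher and Psma7 lower, and without KO gradient 3 it was 3.

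For the change in translation level, 5 core subunits fell (Psma2, Psma7, Psmb3, Psmb5 and Psmb6) and none rose, with a median of -0.42, while 2 regulatory subunits rose (Psmd2 and Psmd4) and none fell, with a median of 0.21. Over all genes, 15.2% fell and 13% rose, so 5 of 14 in the core stands above the background and 2 of 17 in the regulatory particle near it. With the gradient as a block, 4 regulatory subunits rose, Psmc3 and Psmd3 in addition. Without WT gradient 2 or KO gradient 3, none did, and without WT gradient 1 or 3 only Psmd4 did. The core count was 3 without WT gradient 1 or 2 or KO gradient 1 or 3, in each case Psma7, Psmb3 and Psmb5. With libraries scaled by total counts, 12 core subunits fell, while no regulatory subunit rose and 3 fell (Psmc2, Psmd7 and Psmd8).

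Psmd4, a subunit that binds ubiquitin chains (ENSMUSG00000005625, chromosome 3, 95032694 to 95042614, minus strand), had the highest change in translation level of the 31, 0.61 ± 0.18 (adjusted p = 0.00762). In monosomes, its level fell from 595, 669 and 709 CPM to 350, 448 and 364 CPM (-0.76 ± 0.13, adjusted p = 9.95e-06). In high polysomes it was at 1055, 813 and 1021 CPM in WT and 731, 831 and 1046 CPM in KO, which overlap (-0.15 ± 0.12, adjusted p = 0.286). In low polysomes it was at 488, 480 and 508 CPM in WT and 407, 340 and 362 CPM in KO. Psmd2, the large base scaffold, had a change in translation level of 0.44 ± 0.17 (adjusted p = 0.0484). It no longer passed under edgeR, the 10 CPM filter, no filter, total counts, the fit of the compared libraries only, or in any fit without 1 gradient other than that without KO gradient 2. Less the trend on coding length described below, the change of Psmd2 was -0.01.

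Psmd3, a scaffold of the lid (ENSMUSG00000017221, chromosome 11, 98682554 to 98695979, plus strand), was 1 of 2 members, with the ATPase Psmc1, to rise in high polysomes. It went from 1274, 1090 and 1189 CPM to 1454, 1707 and 1551 CPM there (0.41 ± 0.11, adjusted p = 0.00186). In low polysomes it rose from 598, 519 and 410 CPM to 941, 778 and 800 CPM (0.74 ± 0.12, adjusted p = 1.36e-06), the largest change of a member in that fraction. In monosomes the level was 435, 476 and 418 CPM in WT and 451, 477 and 407 CPM in KO, which interleave.

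The ATPase Psmc2 and the lid subunit Psmd8 had the lowest translation level changes of their groups, and neither passed. Psmc2 (ENSMUSG00000028932, chromosome 5, 21785283 to 21803787, plus strand) was at 115, 103 and 106 CPM in WT monosomes, 110, 103 and 109 CPM in WT low polysomes and 265, 240 and 242 CPM in WT high polysomes. In KO it was at 91.2, 87.8 and 83.4 CPM, 107, 72.1 and 100 CPM, and 181, 155 and 176 CPM, in the same order. Its translation level differed by -0.24 ± 0.19 (adjusted p = 0.369), and it fell in high polysomes (-0.55 ± 0.12, adjusted p = 0.000153). Psmd8 (ENSMUSG00000030591, chromosome 7, 29174188 to 29180701, minus strand) was at 506, 545 and 500 CPM in WT monosomes and 525, 454 and 388 CPM in KO, and at 883, 914 and 690 CPM in WT low polysomes and 876, 826 and 731 CPM in KO, and both pairs overlap. In high polysomes it fell from 886, 803 and 939 CPM to 697, 685 and 588 CPM (-0.42 ± 0.12, adjusted p = 0.00212), and its translation level differed by -0.22 ± 0.17 (adjusted p = 0.362).

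Within each fraction, the level of KO was set against WT. In high polysomes, 21 of 31 fell and 2 rose, with a background of 31.6% lower and 29.1% higher, and the 21 held 14 of 14 core subunits (median -0.60) and 7 of 17 regulatory subunits (median -0.18). Less the trend on coding length described below, these medians were -0.10 for the core, with 8 of 14 below the trend, and -0.23 for the regulatory particle, with 14 of 17 below it. In monosomes, 15 fell and 1 rose, against 19.9% lower and 17.5% higher over all genes, and 10 of the 15 were regulatory subunits. In low polysomes, 5 fell and 8 rose, against 26.2% lower and 26.1% higher, so that the rises were at the background and the falls below it. The monosome count was 8 without WT gradient 2, 9 without KO gradient 2 and 10 without WT gradient 1, and the low polysome count was 7 without WT gradient 2. One member fell in all 3 fractions, the ATPase Psmc6, by 0.89 (SE 0.15) in monosomes, 0.68 (SE 0.13) in low and 0.90 (SE 0.12) in high polysomes, and none rose in all 3. Over all genes tested, 10.7% fell and 11.7% rose in all 3 fractions.

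**Figure D2:**
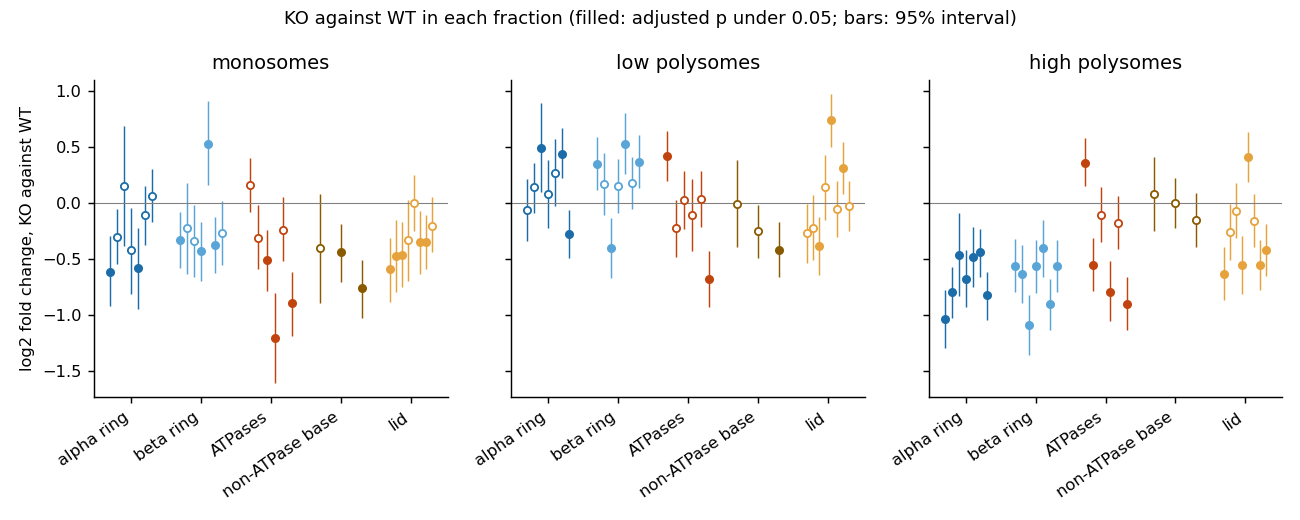
Log2 fold change of each member (1 point each, in symbol order within a group) in KO against WT, by fraction, with its 95% interval. Filled points passed at an adjusted p under 0.05. In high polysomes all 14 alpha and beta ring points are filled and below 0, whereas in low polysomes the points lie on both sides of 0.

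The same shift was read as a share, each member's CPM in a fraction relative to its CPM summed over the 3 fractions of the same gradient. The median over the core subunits in low polysomes was 25.2, 26.6 and 25.1% in WT and 36.6, 34.7 and 37.6% in KO, groups that do not overlap. In high polysomes it was 53.5, 52.6 and 56.5% in WT and 42.0, 48.3 and 39.5% in KO. In monosomes it was 20.2% ± 0.928 (SD, n = 3) in WT and 21.7% ± 2.32 (SD, n = 3) in KO, which overlap. For the regulatory subunits the high polysome share was 53.6% ± 0.967 in WT and 52.9% ± 3.35 in KO (SD, n = 3), which also overlap. Their monosome share was 24.4, 23.5 and 23.5% in WT and 21.3, 22.9 and 21.7% in KO, with all KO values lower. These shares weigh each library alike and are not shares of the RNA of a cell.

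**Figure D3:**
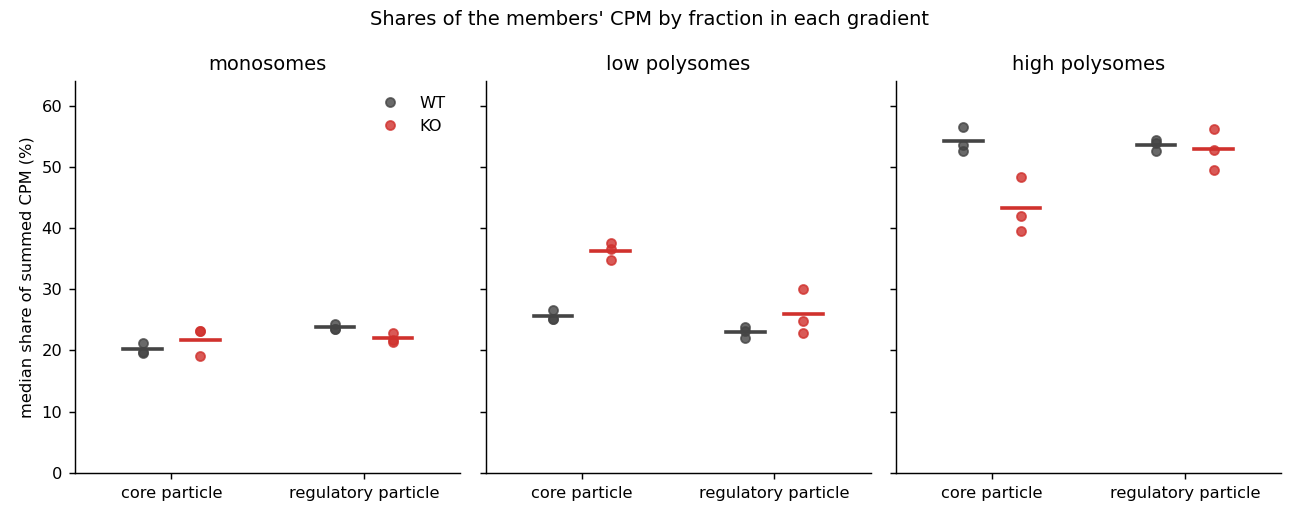
Median share of CPM by fraction (y axis, in %) over the core and the regulatory particle subunits in 3 WT (grey) and 3 KO (red) gradients, with means as bars. The core subunits' low polysome share is at 34.7 to 37.6% in KO and 25.1 to 26.6% in WT, while the regulatory subunits' high polysome share overlaps between genotypes.

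Core and regulatory subunits also differ in coding length, which moved with these changes over all genes. The coding sequence (CDS) was 606 to 834 nt in the core and 933 to 2862 nt in the regulatory particle, with no overlap. Over the 31 members, Spearman's rho of CDS length with the change in the high to low ratio was 0.75, and with the change in translation level 0.77. Over 11763 protein-coding genes these were 0.43 and 0.56. Within the core, rho was -0.19 and 0.11, and within the regulatory particle 0.36 and 0.45. The points of each set share the same libraries, so these are descriptions.

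With each member's change taken less the trend on CDS length over all protein-coding genes, the core median of the change in translation level was 0.05 in place of -0.42, and 6 of 14 lay below the trend. For the high to low ratio, the core median was -0.48 in place of -0.90, and all 14 lay below the trend, from -0.67 (Psmb6) to -0.14 (Psma7). For the regulatory particle it was -0.06. The low polysome to monosome ratio of the core was 0.60 above the trend at the median, more than the 0.52 without it. The part of coding length in these changes was not tested further. Psmd4 and Psma5 lay above the trend in translation level by 0.71 and 0.61, and Psmb5 and Psma7 below it by values of -0.52 and -0.41.

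**Figure D4:**
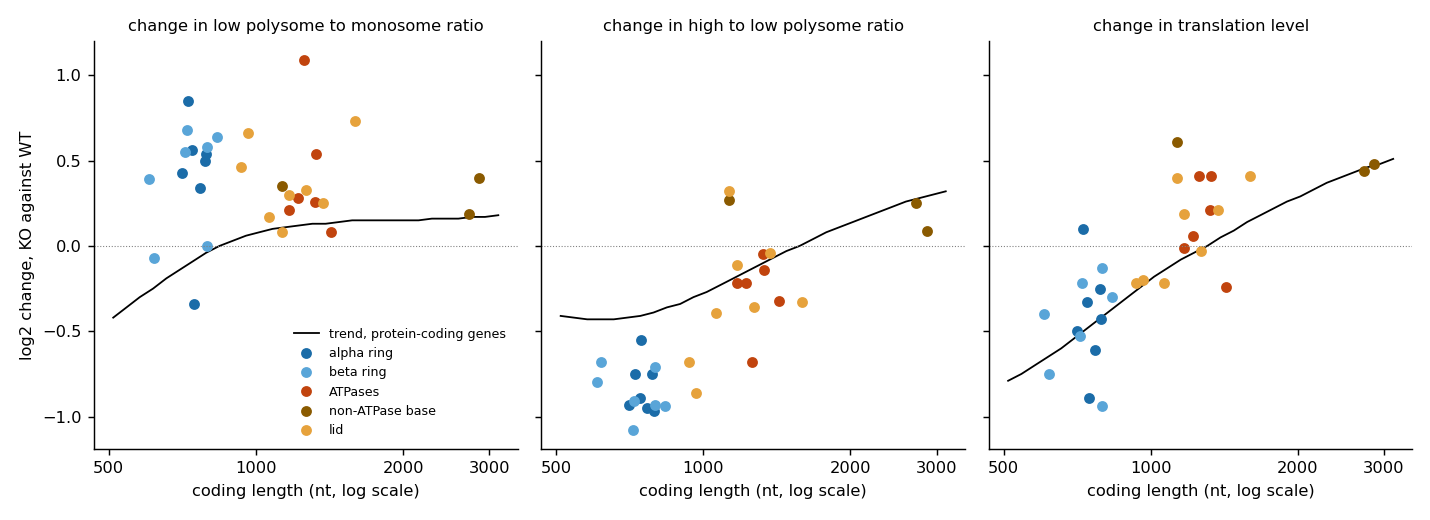
Change of 3 ratios in KO against WT (y axis, log2) against CDS length (x axis, nt, log scale) for each member, coloured by group, with the trend over protein-coding genes as a line. In the middle panel all 14 core points lie below the line, and in the right panel members lie on both sides of it.

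The genes around the proteasome were described by lists, of 39 genes tested in all. All 5 core assembly chaperones fell in translation level, with a median of -0.86, and all 5 fell in high polysomes. Over all genes, 15.2% and 31.6% fell there. Pomp, the factor that matures the core, was at 577, 534 and 506 CPM in WT high polysomes and at 181, 182 and 148 CPM in KO, and its translation level fell by 1.34 (SE 0.19, adjusted p = 9.92e-07). Psmg3 fell by 1.86 (SE 0.24, adjusted p = 1.43e-07), Psmg4 by 0.86 (SE 0.22, adjusted p = 0.00306), Psmg2 by 0.78 (SE 0.18, adjusted p = 0.000829) and Psmg1 by 0.61 (SE 0.20, adjusted p = 0.0202). Their coding sequences are short too, 369 nt in Psmg3, 372 nt in Psmg4, 426 nt in Pomp, 795 nt in Psmg2 and 870 nt in Psmg1. The CDS trend in translation level was -0.95 at 373.7 nt, -0.90 at 423.5 nt, -0.42 at 791.4 nt and -0.36 at 842.5 nt. Psmg4 thus lay above the trend, and Psmg3, Pomp, Psmg2 and Psmg1 below it.

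Of the base assembly chaperones, 3 were tested, and all 3 fell in the high to low ratio and in high polysomes. Over all genes, 10.3% and 31.6% fell in these. Of the 3, only Psmd9 fell in translation level (-1.0 ± 0.25, adjusted p = 0.00215). Of 7 other subunits and bound factors of the regulatory particle, 2 fell in translation level, Sem1 and Adrm1, and none rose. Sem1, the smallest lid subunit (213 nt of CDS), fell in all fractions, most in low polysomes, where it went from 486, 473 and 472 CPM to 130, 128 and 129 CPM (-1.88 ± 0.11, adjusted p = 3.46e-18). Adrm1, a ubiquitin receptor, had a change of -1.42 ± 0.42 (adjusted p = 0.00917) at 5.64 to 24.6 CPM, so few reads stand behind it.

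Of the 5 tissue-specific and immune core subunits, 4 were tested, and Psmb11 was under the filter. In high polysomes 3 of them rose, and Psma8, the germ cell alpha subunit, rose in low polysomes only (0.53, adjusted p = 0.0229). The background was 29.1% of genes higher in high polysomes and 26.1% higher in low polysomes. Psmb8, which replaces Psmb5 in the immunoproteasome, had 0 reads in each WT monosome and high polysome library and 0, 0 and 2 in WT low polysomes. In KO it had 12, 18 and 26 reads in monosomes, 53, 39 and 69 in low and 65, 73 and 107 in high polysomes. Against a floor of 3 counts per WT library, it was at least 3.61-fold higher in monosomes and at least 21.4-fold higher in high polysomes. Psmb9, the counterpart of Psmb6, rose in all 3 fractions from at most 3.53 CPM in WT to 7.15 to 19.7 CPM in KO, with a change of 2.52 ± 0.39 (adjusted p = 6.01e-07) in low polysomes.

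Psmb10, the counterpart of Psmb7, passed in high polysomes only. It was at 12.5, 6.49 and 6.69 CPM in WT high polysomes and 41.7, 34.8 and 38.4 CPM in KO (2.23 ± 0.24, adjusted p = 1.99e-10), and its translation level rose by 1.96 (SE 0.33, adjusted p = 1.31e-05). In low polysomes its change was 0.10 ± 0.17 (adjusted p = 0.636). Psme1 and Psme2, the activator pair that opens the core gate, rose in every fraction. Psme1 went from 143, 132 and 109 CPM to 235, 288 and 354 CPM in high polysomes (1.19 ± 0.13, adjusted p = 4.78e-10). Psme3, the nuclear activator, fell in translation level (-1.08 ± 0.20, adjusted p = 8.48e-05) and Psme4 rose (0.57 ± 0.19, adjusted p = 0.0231), so the list of 5 held 1 in each direction.

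Nfe2l1, which encodes NRF1, rose in all 3 fractions. Its level was 246, 271 and 242 CPM in WT monosomes and 370, 315 and 338 CPM in KO (0.42 ± 0.13, adjusted p = 0.00975). In high polysomes it was 581, 528 and 502 CPM in WT and 1102, 1006 and 956 CPM in KO (0.93 ± 0.12, adjusted p = 7.12e-09). Of the 7 genes of its pathway list, 2 rose in translation level, Nfe2l1 (0.50 ± 0.18, adjusted p = 0.0267) and Vcp, the segregase that draws NRF1 out of the membrane (0.50 ± 0.18, adjusted p = 0.0305), and none fell. In translation level, 13% of all genes rose and 15.2% fell. The coding sequences are 2226 nt in Nfe2l1 and 2421 nt in Vcp. The CDS trend was 0.37 at 2291 nt and 0.40 at 2439 nt, so both rises lay near the trend. No activity of NRF1 was measured.

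The antioxidant response element was looked for, on either strand, as TGACNNNGC in RefSeq promoters (250 bases before to 50 after the start, GRCm38.p6). Of the members, 25 had 27 promoters in the table, and 4 of these held it (14.8%), against 12.4% of all 32851 promoters. The matches are shown because this is a form of the element described above for NRF1. The share of this form among the members is near that of all promoters. They are printed on the gene's strand, with the match in capitals, which lies on the other strand in Psmc6 and Psmd12.
Psmb5 (chr14:54618024-54618052, minus strand): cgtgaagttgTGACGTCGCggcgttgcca
Psmb6 (chr11:70525338-70525366, plus strand): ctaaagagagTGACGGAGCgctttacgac
Psmc6 (chr14:45329587-45329615, plus strand): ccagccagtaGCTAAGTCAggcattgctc
Psmd12 (chr11:107479278-107479299, plus strand): tctGCTGTGTCAcatttgcccc
The other form of the element, TGAGNNNGC, was in 40.7% of the members' promoters and 17.6% of all. Either form was in 48.1% of the members' promoters and 27.8% of all, and CCAAT in 37.0 and 37.4%. Of the 4 members shown, Psmb5, Psmb6 and Psmc6 fell in high polysomes, and Psmd12 did not pass (-0.26 ± 0.13, adjusted p = 0.0736), where 21 of the 31 members and 31.6% of all genes fell.

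Genes that supply ubiquitin and carry tagged proteins went in both directions. Of 8 such genes described here, 4 rose in translation level (Ubb, Uba1, Ubqln1 and Ubqln2) and 2 fell (Rps27a and Ubqln4). By that measure, 13% of all genes rose and 15.2% fell. Near their coding lengths, the CDS trend was 0.51 (3132 nt, Uba1), 0.18 (1676 nt, Ubqln1) and 0.26 (1899 nt, Ubqln2). It was -0.83 (479.9 nt) for Rps27a, and all of these genes moved in the direction of the trend. Ubb (trend -0.30 at 896.8 nt) and Ubqln4 (trend 0.22 at 1784 nt) moved against it. Ubb, a polyubiquitin gene, rose by 0.96 (SE 0.26, adjusted p = 0.00411), as did Uba1, the main activating enzyme (1.05 ± 0.21, adjusted p = 0.000206). Rps27a, which encodes ubiquitin fused to a ribosomal protein, fell by 1.68 (SE 0.34, adjusted p = 0.000243). As a ribosomal protein gene it has near-identical copies elsewhere in the genome, and its counts are uncertain for that reason.

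**Figure D5:**
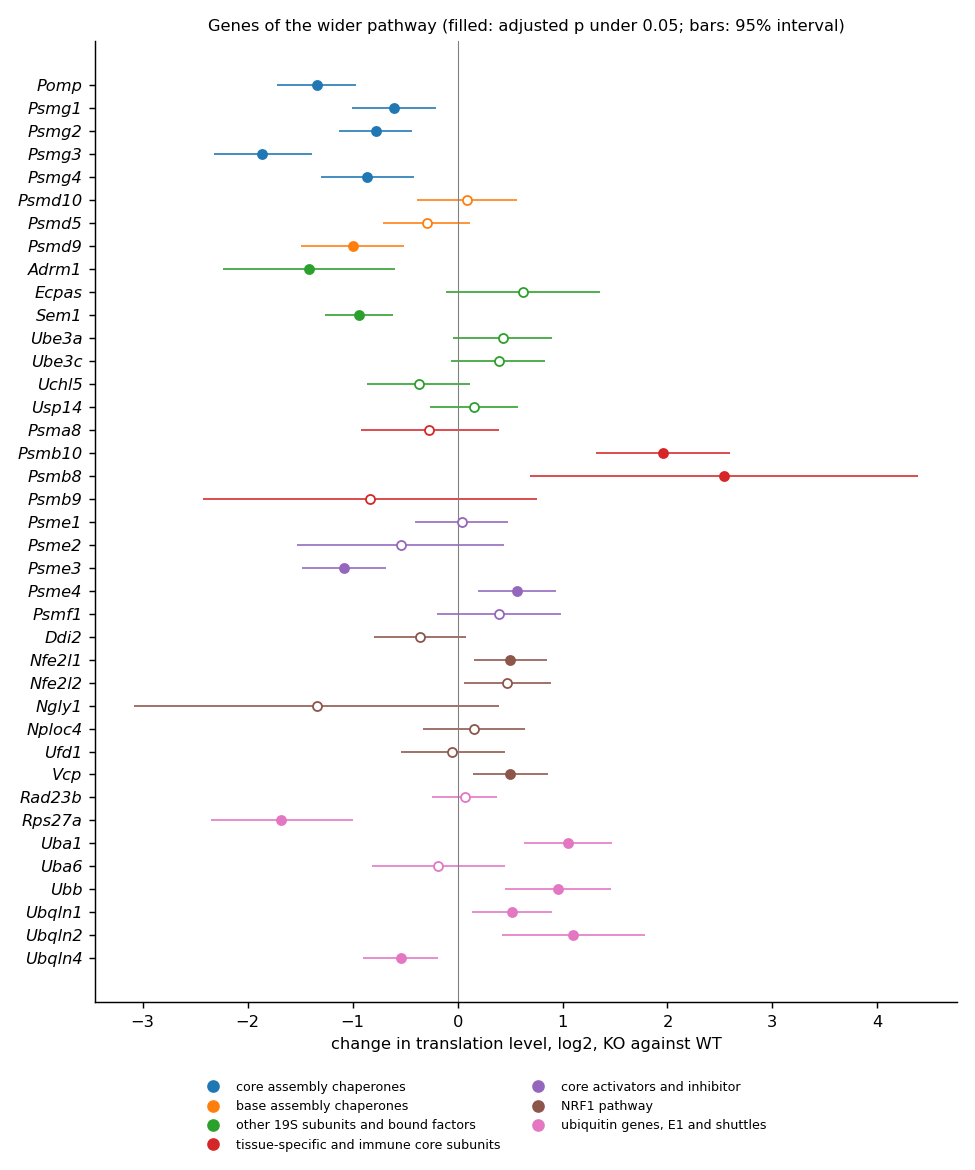
Change in translation level (x axis, log2, KO against WT) of genes around the proteasome (y axis), with 95% intervals and colours by list. Filled points passed at an adjusted p under 0.05. All 5 core assembly chaperones lie below 0 and are filled, and the ubiquitin genes lie on both sides.

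Limits of counting touch some members. Over their last 300 bases, Psma5, Psmb3, Psmb5 and Psmc1 have processed pseudogenes with 95% identity or more over at least 50 bases, and Psmd2 has such a copy in Gm5422. A stretch of Psma2 matches a transcript of Grin1 over 50 bases, and Psmb7 ends across from Nek6 on the other strand, which counting by strand keeps apart. Psmb5 also overlaps Mir686 and Psmd1 overlaps Gm21972 on the same strand. Reads that align to both places were dropped, so the counts of these genes are uncertain. Scaling libraries by total counts instead of TMM factors moved the median over all genes by -0.328 for the change in translation level and by -0.199 for the high to low ratio. The core count for the latter stayed at 14 of 14, and the regulatory median for the former turned to -0.12. It also moved that median by -0.130 for the low polysome to monosome ratio, 0.105 in monosomes, -0.224 in high polysomes and -0.249 for the translation level in KO.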

How the data were processed

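RNA of 18 gradient fractions was sequenced with a 3′ end kit. The authors trimmed reads with cutadapt 1.14, aligned them to mm10 with STAR 2.5.3a, kept unique alignments and deposited raw counts of reads per gene made strand-specifically with featureCounts 1.5.3 over GENCODE M14. No step on molecular identifiers is given, so floors cover counting error only. Intervals come from the limma-voom standard errors, which rest on the spread between the libraries of a group. A gene length column of the deposited table was not used. The 92 spike-in entries (0.000522 to 0.00215% of reads) were left out. Symbols, CDS and UTRs came from GENCODE M21 on the same build, where 51274 genes matched, and promoter and microRNA sequences from RefSeq (GRCm38.p6).

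Genes with at least 3 CPM in 3 or more libraries were tested with limma-voom (limma 3.58.1, R 4.3.3) on TMM-scaled counts, with 1 mean for each of 6 groups. Changes of a ratio are interactions of genotype and fraction. Each p is two-sided and was adjusted by Benjamini-Hochberg across the genes tested, with a threshold of 0.05. Limma, the interaction and the CPM filter follow the study, and voom and TMM were chosen here. CPM use TMM-scaled totals, except in the filter and the summed marker levels, which use unscaled totals. Ratios per gradient use a prior count of 2. The CDS trend is a lowess curve (statsmodels 0.14.6, span 0.3) on log2 CDS length. The code was tested on simulated data. Alternatives used edgeR 4.0.16, DESeq2 1.42.0, other scalings, filters and call rules, a block and leaving out each gradient.

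The labels give genotype, number and fraction, and the study collected all 3 fractions for each sample. Fractions with the same genotype and number were therefore taken as 1 gradient, which pairs them. Deviations from group means correlated by 0.0317 to 0.135 within a gradient, and by 0.000175 to 0.102 between same-numbered WT and KO libraries. Nothing says whether these numbers mark anything shared between the genotypes. The members and gene lists were chosen with earlier results of these data known. Values in every library are given for the members with the lowest and highest change in translation level in the alpha ring, the beta ring, the ATPases and the rest, those with the largest change in each fraction, the catalytic subunits, Psmd4 and Psmd14. Other lists are given by counts, with some of the genes that passed named, and Dgcr8 and Nfe2l1 always. Psmd7, Psmd2, Psmc6, Psmc1, Psmd13, Psma3 and the members that make up small counts were named after their values were seen. Paaf1, a base assembly chaperone, was not analysed here. Of the ubiquitin list, 3 genes are not reported here.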

Additional observations from a re-analysis of the deposited data

Results flagged for a closer look

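For the members named by the rule, a genotype effect that differs between 2 fractions, by a test of the difference itself, calls for a second look. It was found in the high to low polysome ratio for Psma7 (-0.55), Psma5 (-0.75), Psmb5 (-0.93), Psmb4 (-0.71), Psmb3 (-0.68), Psmb6 (-1.08), Psmb7 (-0.94), Psmc4 (-0.68) and Psmd14 (-0.68), all on the log2 scale and all lower in KO. In the low polysome to monosome ratio it was found for Psma5 (0.85), Psmb4 (0.58), Psmb6 (0.55), Psmb7 (0.64), Psmc4 (1.09) and Psmd3 (0.73), all higher in KO. In translation level it was found for Psma7 (-0.89), Psmb5 (-0.94), Psmb3 (-0.75), Psmb6 (-0.53) and, in the other direction, Psmd4 (0.61). Psma5, Psmb4, Psmb7 and Psmc4 passed in both polysome steps and missed the threshold in translation level, and Psmb6 passed in all 3 ratios.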

How the results depend on the processing

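The 14 core subunits were lower in the high to low ratio under every alternative run, and all 14 passed under total counts, DESeq2 size factors, edgeR, DESeq2, both other filters, the fit of the compared libraries and the block, with 10 to 14 passing when a gradient was left out (10 without KO gradient 3). With an absolute log2 change over 1 required as well, members passing were 0 for translation level (0 core, 0 regulatory), 1 for the low polysome to monosome ratio (0 core, 1 regulatory), 1 for the high to low ratio (1 core, 0 regulatory), and 1, 0 and 2 for monosomes, low and high polysomes. Under total counts they were 15 (12 core) for translation level, 5 (2 core) for the low polysome to monosome ratio, 7 regulatory for the high to low ratio and 9 in monosomes. With no filter they were 4 (1 core) for the low polysome to monosome ratio and 7 in monosomes. The regulatory count for translation level was 1 under edgeR, the 10 CPM filter, no filter and the fit of the compared libraries. It was 4 with the replicate block by gradient, which moved no other count of members for changes of a ratio by over 1.5 times. For these counts the cause was not tested.

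Leaving out 1 gradient gave 3 to 9 members for translation level (core 3 to 7, regulatory 0 to 2), 3 to 8 for the low polysome to monosome ratio (core 1 to 5, regulatory 2 to 4), 12 to 17 for the high to low ratio (regulatory 1 to 3), 8 to 16 in monosomes, 7 to 15 in low and 22 to 23 in high polysomes. Less the CDS trend, the median change in translation level was 0.07 over the members and 0.05 over the core, and under total counts it was -0.12 over the regulatory subunits. Of 1040 values for named members under alternatives, 938 kept direction and side of the threshold, 69 no longer passed, 14 newly passed and 19 changed sign, none of which passed. Under total counts these were Psma5 in translation level (-0.22) and Psmc2 in the low polysome to monosome ratio (-0.05). Leaving out 1 gradient in turn gave ranges across 0 for Psma7 in monosomes (-0.04 to 0.24), Psmd3 in monosomes (-0.04 to 0.11), Psmd8 in low polysomes (-0.16 to 0.05), Psma5 (-0.09 to 0.26) and Psmb4 (-0.34 to 0.06) in translation level, and Psmb5 (-0.26 to 0.13), Psmb3 (-0.34 to 0.04) and Psmc2 (-0.01 to 0.17) in the low polysome to monosome ratio.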
